A study of Mus musculus with 54 samples.

Results

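The dose 2 effect on the mouse ovary was compared between 2 generations, as the F2 effect minus the F1 effect. The F2 effect was the difference between untreated females whose parents had both been exposed and untreated females of control parents. The F1 effect was the difference between exposed females and control females. Each of the 4 groups had 3 libraries, lettered A to C, so 12 of the 54 libraries of the study entered the difference, and every gene of the ovary count table was eligible. After a filter on low counts, 17754 genes were tested.

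Exposure was given to pregnant mice and then to their progeny in drinking water, from 8.5 days post-coitum until the F1 females were killed at 8 weeks. The F2 females with both parents at dose 2 were labelled as untreated themselves, and the F2 females of control parents likewise. Water for the F1 dose 2 group held ibuprofen at 113 ng/L, its metabolite 2-hydroxyibuprofen at 225 ng/L, diclofenac at 112 ng/L and 17-alpha ethinyl-estradiol at 45 ng/L. Water for the F1 control group held 0.001% ethanol. The age of the F2 females, the oestrous stage and the hour of sampling were not given in the sources used here. The labels did not say whether libraries of 1 group came from separate litters, so each p-value measures only the spread between these libraries. Generation cannot be told apart from any batch of rearing, dissection or sequencing.

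Ibuprofen and diclofenac block the cyclooxygenases that make prostaglandins, and ethinyl-estradiol is a potent oestrogen receptor agonist. In the ovary, granulosa cells around the oocyte make oestradiol and inhibins, theca and luteal cells make androgens and progesterone, and prostaglandins take part in ovulation and luteal regression. Ovarian RNA therefore shifts with the oestrous cycle as well as with treatment. In whole-ovary RNA, fewer cells of a type and less RNA per cell cannot be told apart.

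The 12 libraries held 37412062 to 101817720 counts. Ovarian identity was clear in all of them: the granulosa transcription factor Foxl2, the oocyte coat gene Zp3 and the steroidogenic enzyme Cyp11a1 were present throughout, with Foxl2 between 163 and 302 CPM (counts scaled to library size). Some libraries stood apart. Ovgp1, the oviduct-specific glycoprotein, measured 1014, 299 and 3.38 CPM in F1 dose 2 libraries A, B and C and 146, 7.55 and 4.87 CPM in F1 control libraries A, B and C, and lay between 3.89 and 6.26 CPM in the 6 F2 libraries. F1 dose 2 libraries A and B therefore carried oviduct transcripts far above the others, with F1 control library A next. F1 control library A also had the highest summed level of ribosomal protein genes. It had the lowest sample quality weight of the 27 ovary libraries in limma's voom fit, 0.0916, followed by F2 both-parents library C at 0.343.

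Across all genes, 1275 genes (7.18% of those tested) passed an adjusted p of 0.05 for the difference between the F2 and the F1 effect, by edgeR's quasi-likelihood test on all 27 ovary libraries. Of these, 753 (4.24%) had a higher effect in F2 and 522 (2.94%) a lower one. The difference was at least 2-fold in 552 of them. Most calls lay close to the threshold: 475 genes had an adjusted p under 0.044, 20 under 0.04, 10 under 0.03 and 3 under 0.02. At an unadjusted p under 0.05, 5713 genes qualified.

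This count was very unstable. It was 0 when the 12 libraries of the contrast were fitted without the other 15, 25 without the low-count filter, 94 in limma's voom fit with sample quality weights and 3226 in DESeq2. Leaving out 1 library gave 1 to 4158 genes, and 8 of the 12 such fits gave 14 or fewer. The 2 highest values came without F1 control library B (3941) and without F1 control library C (4158). Without F1 control library A, 3 genes passed. In fits chosen after seeing the data, 0 genes passed without F1 dose 2 libraries A and B, 0 when F1 control library A was also left out, and 0 without F2 both-parents library C and F1 control library A. Every count of called genes that follows rests on the fit of all 27 libraries and carries this limit.

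**Figure D1:**
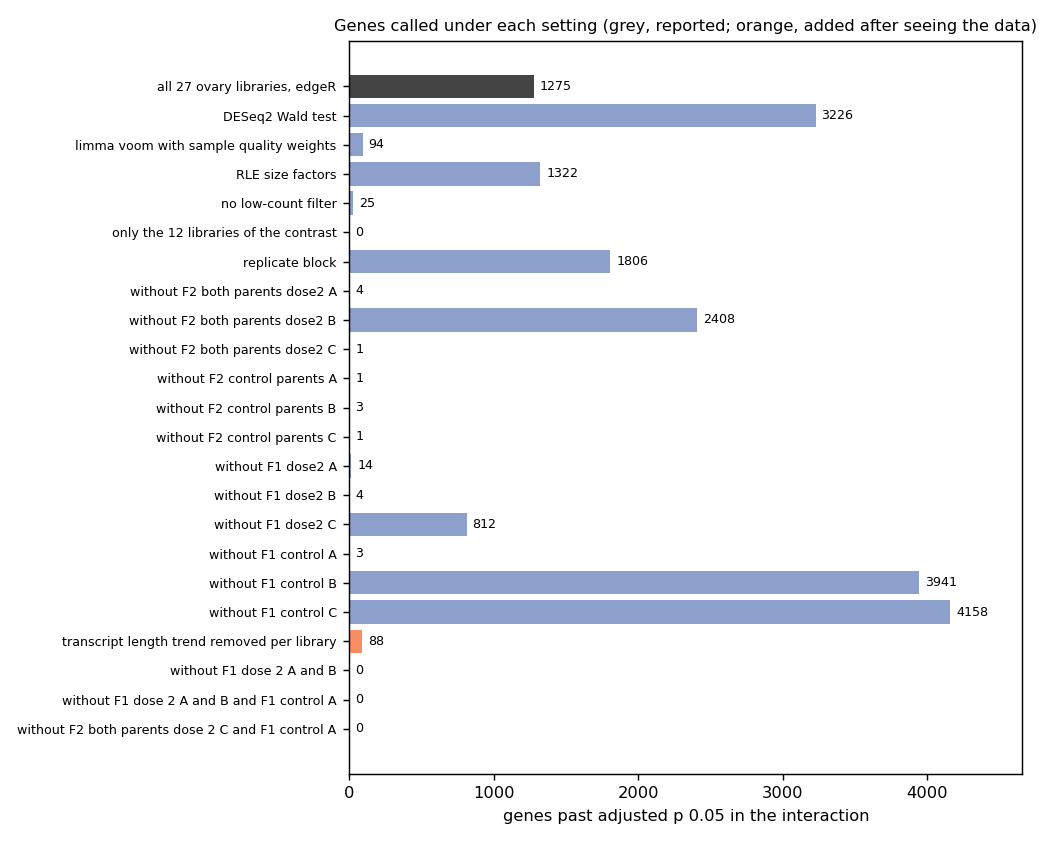
Number of genes past an adjusted p of 0.05 for the F2 effect minus the F1 effect (x axis) under each setting (y axis). The dark bar is the reported fit with 1275 genes, blue bars are other settings and orange marks settings chosen after seeing the data, of which 3 gave 0 genes.

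No gene passed in the F2 comparison by edgeR, with 2906 genes at an unadjusted p under 0.05 and a lowest adjusted p of 0.134, whereas DESeq2 called 258 and limma's voom fit 853. In the F1 comparison 350 genes (1.97%) passed, 264 (1.49%) higher and 86 (0.484%) lower in F1 dose 2. Between F2 both-parents and F1 dose 2 females, 1390 genes (7.83%) passed, 586 (3.3%) higher and 804 (4.53%) lower in F2. Between F2 control-parents and F1 control females 0 passed by edgeR, with 2479 at an unadjusted p under 0.05 and 124 called by DESeq2. Among the 753 genes with a positive difference, the median F2 effect was 0.39 and the median F1 effect -0.53 on the log2 scale. Among the 522 with a negative difference, the medians were -0.39 in F2 and 0.48 in F1. These medians describe genes that the difference itself selected.

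**Figure D2:**
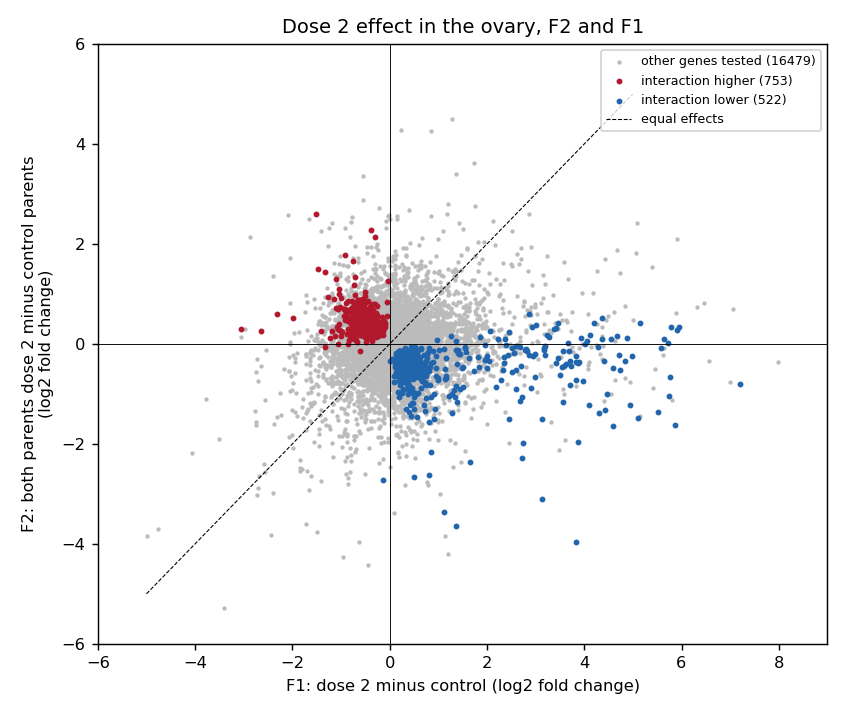
Dose 2 effect in F2 (y axis, log2 fold change of both parents dose 2 over control parents) against the effect in F1 (x axis, log2 fold change of dose 2 over control) for each of 17754 genes. The 753 genes with a positive difference (red) lie up and left of the line of equal effects, and the 522 with a negative one (blue) lie below it, with a tail of F1 effects above 2.

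The 10 genes with an adjusted p under 0.03 were singled out after their values were seen. Herpud1, a membrane protein of the endoplasmic reticulum (ER) that takes part in the removal of misfolded proteins, measured 119.9, 102 and 104 CPM in F2 both-parents libraries, against 57.4, 58.5 and 73.4 CPM in F2 control-parents libraries. In F1 it measured 65.7, 55.7 and 56.1 CPM at dose 2, against 104, 94.0 and 97.2 CPM in controls. The groups did not overlap in either generation, and the direction was opposite. Over all genes tested, 26.0% had groups without overlap in F2, 20.5% in F1 and 5.65% in both. The effect was 0.78 (SE 0.16) in F2 and -0.73 (SE 0.16) in F1, and the difference was 1.52, SE 0.22, adjusted p = 0.0118. It was called in 11 of the 12 fits that left out 1 library, with adjusted p up to 0.0508, and its difference stayed between 1.45 and 1.64. In the fit of 12 libraries alone its adjusted p was 0.0524.

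Ddit3 encodes CHOP, a transcription factor induced by ER stress. In F2 it measured 35.9, 37.4 and 51.7 CPM with both parents at dose 2, against 22.6, 22.8 and 25.5 CPM with control parents. In F1 the level was 17.5, 19.1 and 19.4 CPM at dose 2, against 45.7, 31.2 and 27.3 CPM in controls. Again neither pair of groups overlapped. The effect was 0.82 (SE 0.20) in F2 and -0.89 (SE 0.20) in F1, and the difference (1.71, SE 0.29, adjusted p = 0.0255) was called in 6 of 12 fits without 1 library. Xbp1, another transcription factor of the unfolded protein response and listed here among oestrogen targets, differed in the same direction (0.91, SE 0.24, adjusted p = 0.0439). Hspa5, the main ER chaperone BiP, ranged from 1144 to 1755 CPM and did not pass (0.49, SE 0.22, adjusted p = 0.124).

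Fzd6, a frizzled receptor for Wnt ligands, had the smallest adjusted p among genes with a negative difference. It measured 14.0, 14.4 and 11.8 CPM in F2 both-parents libraries, against 20.9, 25.9 and 24.1 CPM in F2 control-parents libraries. Its F1 level was 33.2, 23.5 and 24.1 CPM at dose 2, against 11.1, 16.5 and 17.7 CPM in controls. The effect was -0.82 (SE 0.18) in F2 and 0.83 (SE 0.18) in F1, the groups did not overlap in either generation, and the difference (-1.65, SE 0.25, adjusted p = 0.0118) was called in 10 of 12 fits without 1 library. Of the other genes under 0.03, the Rab GTPase activator Tbc1d10a and the Cdc42-binding membrane-bending protein Trip10 had positive differences of 0.87 and 0.86. The monocarboxylate transporter Slc16a7, the ciliary transition zone protein Cep290, the diacylglycerol kinase Dgke and Tspyl4, of the nucleosome assembly protein family, had negative ones of -1.25, -0.88, -1.39 and -1.24. With the trend on transcript length removed from each library, a setting chosen after seeing the data, Herpud1, Fzd6, Ddit3, Tbc1d10a and Tspyl4 still passed, while Slc16a7, Cep290, Dgke and Trip10 had adjusted p of 0.191, 0.485, 0.0592 and 0.0505.

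Several cytosolic heat shock genes had a higher effect in F2. Of 14 genes of heat and cold shock, 6 passed with a higher effect in F2 and 0 with a lower one. The 6 were 42.9% of the list, against 4.24% of all genes tested. The list's median was 0.93 against -0.01 over all genes tested. Hspa1a, an inducible HSP70 chaperone, measured 152, 112 and 66.4 CPM in F2 both-parents libraries, against 111, 61.9 and 96.5 CPM in F2 control-parents libraries. In F1 it measured 53.1, 27.03 and 20.2 CPM at dose 2, against 371, 267 and 193 CPM in controls. The F2 groups overlapped, and the F1 dose 2 libraries all lay below the F1 control libraries. Its effect was 0.29 (SE 0.42) in F2 and -3.05 (SE 0.45) in F1, and the F1 effect itself passed (adjusted p = 0.00784). The difference was 3.35, SE 0.60, adjusted p = 0.0285. Its near-identical neighbour Hspa1b gave 2.91, SE 0.64, adjusted p = 0.0437, and reads of the pair may have been split between them, so the 2 are not independent.

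Partners of HSP70 also passed. Dnaja1 and Dnajb1, both HSP40 co-chaperones, differed by 1.30 and 1.05, and the co-chaperone Bag3 by 0.71. Hspa8, the constitutive HSC70, measured 4405, 3858 and 4296 CPM in F2 both-parents libraries, against 2934, 3560.1 and 2852 CPM in F2 control-parents libraries, and 3913, 3117 and 2106 CPM in F1 dose 2 libraries, against 5225, 4049.8 and 4289.5 CPM in F1 control libraries (1.00, SE 0.28, adjusted p = 0.0457). The 8 that did not pass were the small heat shock protein Hspb1 (1.59, SE 0.50, adjusted p = 0.0519), the chaperone genes Hspe1, Hsph1, Hspa5, Hsp90aa1 and Hspd1 and the cold-induced RNA-binding genes Rbm3 and Cirbp. Without Hspb1, their differences ran from -0.04 (Hspd1) to 1.18 (Hsph1). The list's median stayed between 0.78 and 1.07 when 1 library was left out, while its calls ran from 0 to 9. It was 1.18 without F1 dose 2 libraries A and B and 0.78 with the length trend removed, where 2 members (Hspa1a and Dnaja1) still passed.

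**Figure D3:**
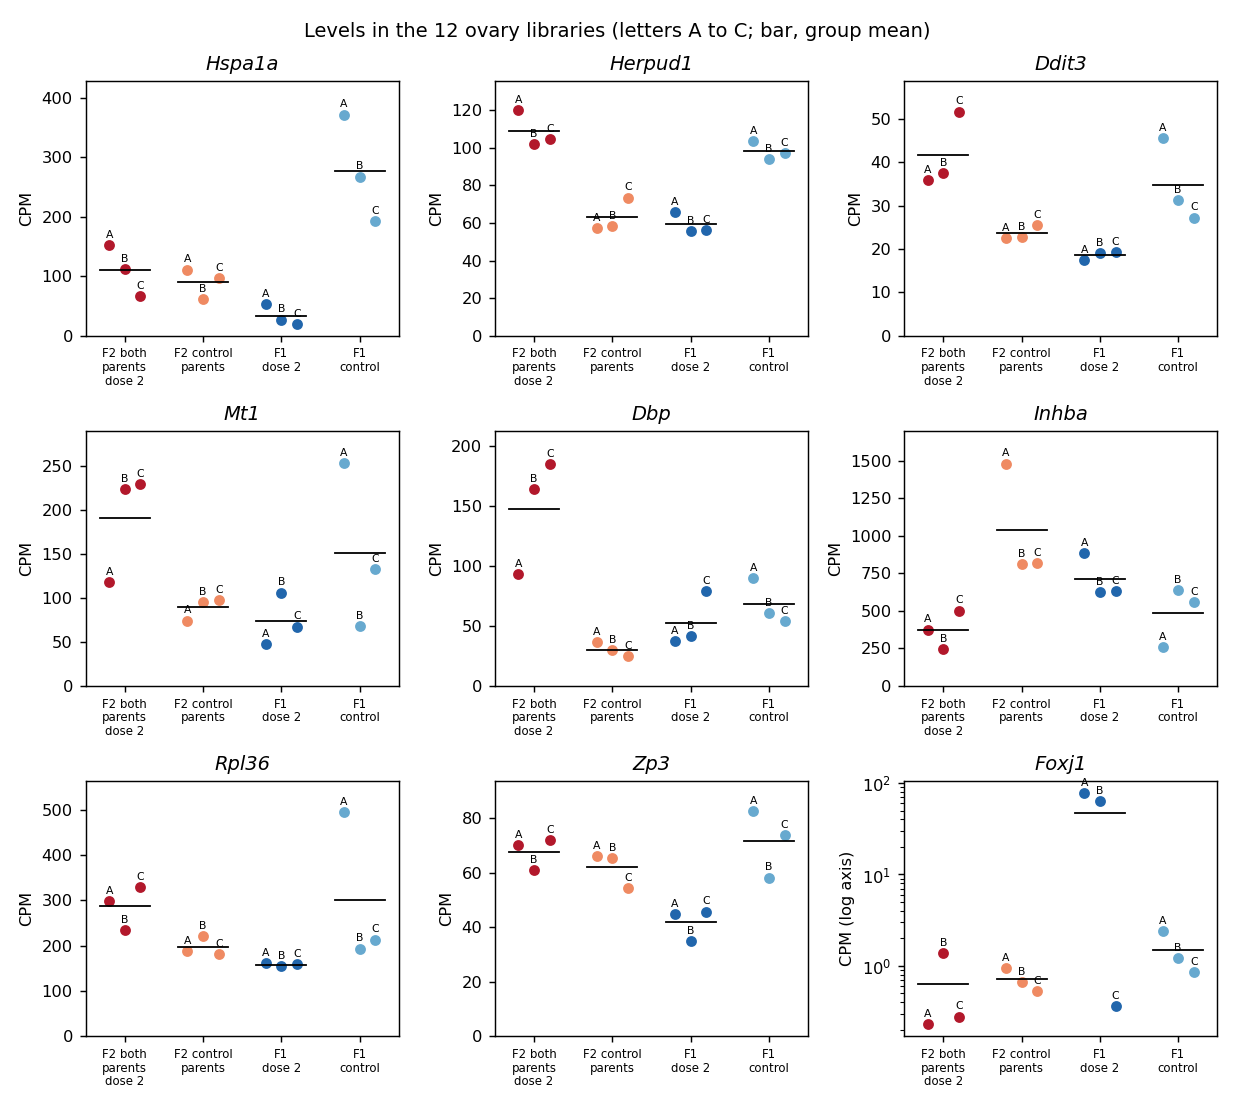
CPM (y axis) of 9 genes in each of the 12 libraries, by group (x axis), with letters for the libraries and a bar for the group mean. Herpud1 and Ddit3 separate the groups in opposite directions in F2 and F1, Hspa1a is lowest in F1 dose 2, and Foxj1 (log axis) is high in F1 dose 2 libraries A and B alone.

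Metallothioneins, small cysteine-rich proteins that bind zinc and copper, are shown with their promoters because both genes, neighbours on chromosome 8, had positive differences. The windows span 250 bases before to 50 after the annotated start, from RefSeq on build GRCm38.p6, with matches to a metal response element (TGCACNC or TGCGCNC, either strand) in capitals. The Mt1 window is chr8:94178839-94179138 and the Mt2 window chr8:94172368-94172667, both on the plus strand.
Mt1: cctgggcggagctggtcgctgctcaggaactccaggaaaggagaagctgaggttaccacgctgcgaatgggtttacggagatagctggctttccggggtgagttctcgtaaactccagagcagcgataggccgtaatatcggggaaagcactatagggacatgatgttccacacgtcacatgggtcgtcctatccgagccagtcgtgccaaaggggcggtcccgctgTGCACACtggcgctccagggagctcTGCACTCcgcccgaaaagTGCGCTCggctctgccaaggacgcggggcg
Mt2: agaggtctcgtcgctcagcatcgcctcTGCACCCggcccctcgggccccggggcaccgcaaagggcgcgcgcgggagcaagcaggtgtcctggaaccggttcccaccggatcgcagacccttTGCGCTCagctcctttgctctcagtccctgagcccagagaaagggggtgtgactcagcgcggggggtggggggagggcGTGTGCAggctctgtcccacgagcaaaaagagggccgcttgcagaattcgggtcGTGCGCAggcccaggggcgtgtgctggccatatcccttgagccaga
Mt1 held 3 matches and Mt2 held 4. Of 27025 gene promoters of that length, 25.6% held at least 1 match and 7.11% at least 2. Among the 50 named genes past the threshold with a promoter sequence, 26.0% held at least 1, and Dbp held 4. This motif was kept for display after several were searched. The heat shock element (GAANNTTCNNGAA or TTCNNGAANNTTC), found in 0.529% of all promoters, had no match in the windows of Hspa1a, Hspa1b, Dnaja1 or Dnajb1. Of 11 heat and cold shock genes with a promoter sequence, 2 (18.2%) held it, as did 1 of 50 named genes past the threshold, Uchl1. The ER stress element (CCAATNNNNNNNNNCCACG), found in 0.13% of all promoters, had none in Herpud1, Ddit3 or Xbp1. It was present in 1 of the 11 heat and cold shock genes (9.09%). The D-box (TTATGCAA or TTATGTAA), found in 1.74% of all promoters, had none in Dbp. A match is a description of the letters and no evidence of binding. Only exact letters within these windows counted, so a missing match is no evidence that a gene lacks the element.

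Mt1 measured 118, 224 and 229.8 CPM in F2 both-parents libraries, against 74.3, 95.6 and 97.9 CPM in F2 control-parents libraries, and 47.9, 106 and 67.5 CPM in F1 dose 2 libraries, against 253, 68.1 and 133 CPM in F1 control libraries. The F2 groups did not overlap, and the F1 groups did. Mt1 differed by 2.13, SE 0.53, adjusted p = 0.0437 and Mt2 by 2.05, SE 0.61, adjusted p = 0.0481. The 25 antioxidant genes had a median of 0.63. Of them, 4 passed with a higher effect in F2 (16%, against 4.24% of all genes tested) and 0 with a lower one. Besides the metallothioneins these were the peroxiredoxin Prdx5 (1.11) and thioredoxin Txn1 (1.04). Gclc, the catalytic subunit of glutathione synthesis, had a negative difference that did not pass (-0.76, SE 0.24, adjusted p = 0.0513). The list's median was 0.32 with the length trend removed and 0.34 without F1 control library A, with 0 members called in either fit. Over all genes, 88 and 3 passed in these fits.

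Ribosomal protein genes formed the group with the most calls. Of 76 genes, 64 passed with a higher effect in F2 (84.2%, against 4.24% of all genes tested) and 0 with a lower one. The median difference was 1.04, the median F2 effect 0.39 and the median F1 effect -0.63. Rpl36, of the large subunit, measured 298, 235 and 330.2 CPM in F2 both-parents libraries, against 188, 221 and 181 CPM in F2 control-parents libraries. In F1 the level was 161, 154 and 159 CPM at dose 2, against 495, 194 and 214 CPM in controls (1.48, SE 0.34, adjusted p = 0.0437). F1 control library A, at 495 CPM, lay far above the other 2 control libraries. It was the highest of the 12 libraries for 74 of the 76 genes, and F1 dose 2 library C the lowest for 60. Reads of these genes can also be shared with processed pseudogenes, so single values are uncertain.

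Summed over the 76 genes, the level was 51519, 42699 and 54110 CPM in F2 both-parents libraries, against 37130, 43520 and 33456 CPM in F2 control-parents libraries. It was 32720, 31827 and 30130 CPM in F1 dose 2 libraries, against 71866, 34600 and 37015 CPM in F1 control libraries. Without F1 control library A the median difference was 0.62 and 0 members passed, in a fit where only 3 of all genes passed. Across fits that left out 1 library, 0 to 74 members passed. With the length trend removed, the median was 0.46 and 0 passed.

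Transcript length moved with the calls over all genes. The longest annotated transcript had a median of 1472 nt among the 753 genes with a positive difference and 4990 nt among the 522 with a negative one, against 3156 nt over all genes tested (98.3% of which had a length). Among the 3489 genes with the shortest transcripts, up to 1758 nt, 12.6% had a positive and 0.803% a negative call. Among the 3489 with the longest, from 5034 nt, 0.545% had a positive and 7.37% a negative call. In F1 control library A the short genes lay 0.41 above and the long genes 0.51 below their mean over the 12 libraries (log2), and in F2 both-parents library C 0.23 above and 0.33 below. F1 control library A was the highest of the 12 for 620 of the 753 genes (82.3%, against 23.0% of all genes) and the lowest for 304 of the 522 (58.2%, against 25.5%). With the trend on length removed from each library, 88 genes passed, of which 69 were among the 1275.

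**Figure D4:**
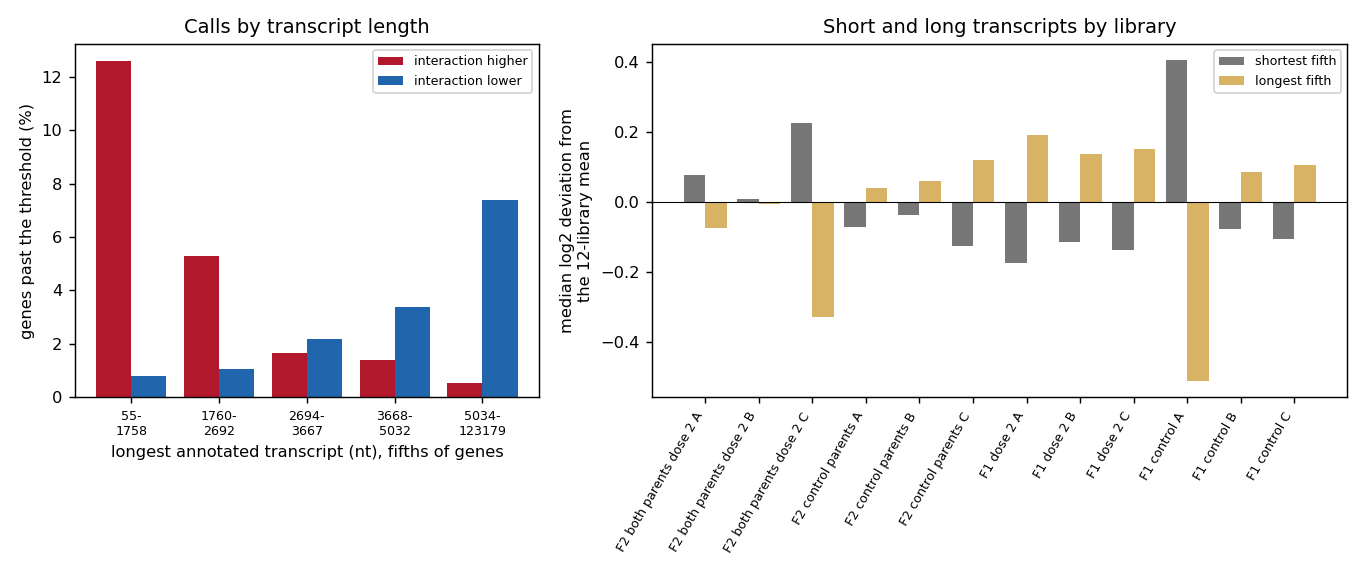
Left, share of genes called (y axis, percent) with a positive (red) or negative (blue) difference in 5 bins of the longest annotated transcript (x axis, nt). Right, median log2 deviation from the 12-library mean (y axis) of the shortest and the longest bin in each library (x axis), with F1 control library A and F2 both-parents library C farthest from 0.

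Of 18 clock genes 1 passed with a higher effect in F2 (5.56%, against 4.24% of all genes tested). Another 1 passed with a lower effect (5.56%, against 2.94%). At an unadjusted p under 0.05 in edgeR, 5 were higher and 5 lower, 27.8% of the list each way. Over all genes tested these shares were 15.9% higher and 16.3% lower. DESeq2 called 3 clock genes higher and 3 lower. Dbp, a transcription factor whose level follows the circadian clock closely, measured 93.3, 164 and 185 CPM in F2 both-parents libraries, against 36.4, 29.6 and 25.1 CPM in F2 control-parents libraries. Its F1 level was 37.4, 41.3 and 78.9 CPM at dose 2, against 89.9, 60.6 and 54.1 CPM in controls. The F2 groups did not overlap, and the F1 groups did. Its effect was 2.28 (SE 0.44) in F2 and -0.38 (SE 0.42) in F1, and the difference was 2.65, SE 0.60, adjusted p = 0.0437. Arntl, the core activator BMAL1 whose rhythm runs opposite to that of Dbp, had a negative difference (-1.02, SE 0.27, adjusted p = 0.0439), with an effect of -0.72 (SE 0.19) in F2 and 0.31 (SE 0.19) in F1. The repressor Nr1d1 measured 109, 177 and 135 CPM in F2 both-parents libraries, against 46.7, 59.2 and 42.4 CPM in F2 control-parents libraries, but its difference did not pass (1.39, SE 0.46, adjusted p = 0.0588). The median of the 18 genes was -0.01, with 8 of them positive, so members in opposite directions offset each other in it. The hour of sampling was not given, and its part in these values was not tested.

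Of 19 granulosa genes, 3 passed with a lower effect in F2 (15.8%, against 2.94% of all genes tested) and 1 with a higher one (5.26%, against 4.24%), at a median of -0.22. When 1 library was left out, 0 to 4 were called lower, and the median ran from -0.32 to 0.04, the only positive value coming without F2 control-parents library A. Inhba, which encodes the activin and inhibin beta A subunit, measured 375, 244 and 501 CPM in F2 both-parents libraries, against 1481, 809 and 819 CPM in F2 control-parents libraries. In F1 it measured 884, 623 and 632 CPM at dose 2, against 257, 639 and 558 CPM in controls. The F2 groups did not overlap, and in F1 only dose 2 library B, at 623 CPM, and dose 2 library C, at 632 CPM, fell within the control range. Its effect was -1.47 (SE 0.34) in F2 and 0.56 (SE 0.33) in F1, and the difference was -2.03, SE 0.48, adjusted p = 0.0437. The gap junction gene Gja1 (-0.75) and the oestrogen-induced Greb1 (-1.39) also passed with a lower effect in F2. Amhr2, the receptor for anti-Müllerian hormone, passed with a higher one (0.80). Aromatase, Cyp19a1, measured 27.4, 33.2 and 131 CPM in F2 both-parents libraries, against 251, 96.1 and 101 CPM in F2 control-parents libraries, and its difference did not pass (-1.13, SE 0.84, adjusted p = 0.362).

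Of 24 prostaglandin genes 1 passed, with a higher effect in F2, which is 4.17% of the list against 4.24% of all genes tested. It was the carbonyl reductase Cbr1 (0.82), which reduces prostaglandin E2 among other carbonyls. The cyclooxygenases themselves varied within groups. Ptgs2 measured 0.412, 0.531 and 0.67 CPM in F2 both-parents libraries, against 1.09, 0.30 and 21.8 CPM in F2 control-parents libraries, and 2.36, 0.63 and 0.79 CPM in F1 dose 2 libraries, against 1.16, 1.17 and 18.0 CPM in F1 control libraries. F2 control-parents library C and F1 control library C were far above the other libraries, and the difference did not pass (-1.39, SE 1.82, adjusted p = 0.63). It was 2.06 without F2 control-parents library C and -3.95 without F1 control library C. Ptgs1 gave 0.34, SE 0.80, adjusted p = 0.807. Prostaglandin transporter Slco2a1 gave -1.30, SE 0.43, adjusted p = 0.06, and the prostaglandin E2 receptor Ptger2 gave 0.87, SE 0.31, adjusted p = 0.0676. The prostaglandin F2-alpha receptor Ptgfr, which mediates luteal regression, ranged from 143 to 1170.1 CPM over the 12 libraries with a difference of -0.42.

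Of 19 oestrogen-responsive genes, Xbp1 passed with a higher effect in F2 (5.26% of the list, against 4.24% of all genes tested) and Greb1 with a lower one (5.26%, against 2.94%), and the median was -0.18. Greb1 measured 842, 729 and 649 CPM in F2 both-parents libraries, against 1324, 1076 and 1061 CPM in F2 control-parents libraries, and 1536, 958 and 1018 CPM in F1 dose 2 libraries, against 426, 926 and 743 CPM in F1 control libraries. Neither pair of groups overlapped, and F1 control library A was the lowest of the 12. The cell cycle gene Ccnd1 (-0.81, SE 0.26, adjusted p = 0.054) and the progesterone receptor Pgr (-2.20, SE 0.73, adjusted p = 0.0589) did not pass. Pgr reached 23.0 CPM in F1 dose 2 library A and 4.55 CPM or less in the other 11. The receptors Esr1 and Esr2 differed by -0.29 and -0.07, and neither passed. Of 17 steroidogenesis genes 0 passed, with a median of 0.13 and differences from -1.33 (Akr1c18, which inactivates progesterone) to 1.42 (Star, the carrier of cholesterol into mitochondria). Akr1c18 gave 1.79 without F2 control-parents library C, and -2.54 to -0.71 without any other 1 library. At an unadjusted p under 0.05, 1 was higher (the reductase Por) and 1 lower (the nuclear receptor Nr5a2), and DESeq2 called 1 lower.

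Of 28 oocyte genes, 5 passed with a higher effect in F2 (17.9%, against 4.24% of all genes tested) and 0 with a lower one, at a median of 0.58, a median F2 effect of 0.04 and a median F1 effect of -0.61. Zp3, a protein of the zona pellucida, measured 70.1, 61.0 and 71.9 CPM in F2 both-parents libraries, against 66.3, 65.4 and 54.3 CPM in F2 control-parents libraries. In F1 the level was 44.9, 35.0 and 45.8 CPM at dose 2, against 82.8, 58.2 and 73.9 CPM in controls. The F2 groups overlapped, and the F1 dose 2 libraries all lay below the F1 controls (0.90, SE 0.25, adjusted p = 0.0458). The maternal factors Zar1, Npm2 and Ooep and the secreted protein Oosp1 passed with differences of 1.06, 1.03, 0.92 and 1.05. Gdf9, a growth factor that oocytes send to granulosa cells, did not pass (0.69, SE 0.25, adjusted p = 0.0734). F1 dose 2 library B was the lowest of the 12 for 21 of the 28 genes. The list's median was 0.24 with the length trend removed, where 0 members passed, and 0 to 10 passed when 1 library was left out.

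Other genes with the largest positive differences had varied roles. Crym, a thyroid hormone binding protein, measured 0.962, 1.51 and 5.36 CPM in F2 both-parents libraries, against 0.211, 0.346 and 0.751 CPM in F2 control-parents libraries, and 0.361, 1.08 and 0.54 CPM in F1 dose 2 libraries, against 3.01, 1.35 and 1.25 CPM in F1 control libraries (4.10, SE 0.99, adjusted p = 0.0437). F2 both-parents library C, at 5.36 CPM, was the highest of all. The lectin Fcna differed by 2.403, the leukotriene C4 synthase gene Ltc4s by 1.90, the germ cell RNA-binding gene Dnd1 by 1.82, the membrane protein Dlk2 by 1.76 and the defensin Defb19 by 1.76. Bc1, a short non-coding RNA with repeat-like sequence that makes its counts uncertain, differed by 2.41. Without F2 both-parents library C and F1 control library A, the difference was 2.50 for Crym, 1.24 for Bc1 and 1.09 for Defb19. In that fit 0 genes passed in all.

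For the 12 genes with the largest negative differences, F1 dose 2 libraries A and B alone were high. Several encode parts of motile cilia. Sec14l3, a lipid-binding protein of ciliated epithelia, measured 0.183, 0.186 and 0 CPM in F2 both-parents libraries, against 0.386, 0.0693 and 0.132 CPM in F2 control-parents libraries. Its F1 level was 40.9, 36.9 and 0.06 CPM at dose 2, against 0.0659, 0.398 and 0.0719 CPM in controls (-8.01, SE 2.07, adjusted p = 0.0437). F1 dose 2 library C lay with the other 9. The same pattern held for Hydin, of the central pair of the axoneme, at 22.5, 23.2 and 0.26 CPM in F1 dose 2 libraries, and for the radial spoke gene Rsph4a, at 18.0, 16.5 and 0.10 CPM. Dnah5, an outer arm dynein, reached 47.6, 52.4 and 0.22 CPM there, and Foxj1, the master regulator of motile cilia, 78.0, 64.0 and 0.36 CPM. The other 8 named by the rule, Fermt1, Kndc1, Tsnaxip1, Cdhr3, Cfap52, Armc4, Ccdc180 and Rp1, had differences from -7.81 to -5.67. Since these genes were near 0 in the other libraries, the size of the fitted differences depends on the default prior count of the fit.

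Of 22 oviduct epithelium markers, 4 passed with a lower effect in F2 (18.2%, against 2.94% of all genes tested) and 0 with a higher one. The 4 were Dnah5, Foxj1, Dnah9 and Ccdc39. The 22 markers had a median difference of -1.44, a median F2 effect of -0.01 and a median F1 effect of 1.62. Their summed level was 139, 141 and 156 CPM in F2 both-parents libraries, against 134, 152 and 160 CPM in F2 control-parents libraries, and 1657, 751 and 126 CPM in F1 dose 2 libraries, against 405, 150 and 188 CPM in F1 control libraries. F1 dose 2 library A was the highest of the 12 for 17 of the 22, and none of the 22 was at 0 in an F1 library. Among the 522 genes with a negative difference, 81 (15.5%) were more than 5-fold higher in F1 dose 2 libraries A and B than in each of the other 10 libraries, against 0.929% of all genes tested. Of the 62 of these 81 genes with a promoter sequence, 51 (82.3%) held GGNAAC, a half-site of the X-box bound by RFX factors of ciliated cells, on either strand, against 45.5% of all promoters. Without F1 dose 2 libraries A and B, the list's median was 0.93, and 7 of the genes named here turned positive (Sec14l3, Cdhr3, Rsph4a, Ccdc180, Dnah5, Foxj1 and Ccdc39).

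Of 16 smooth muscle genes 3 passed with a lower effect in F2 (18.8%, against 2.94% of all genes tested) and 0 with a higher one. The list's median was -0.22, and the 3 were Synpo2 (-1.68), the kinase Mylk (-0.73) and the myosin Myh11 (-0.66). F1 dose 2 library A was the highest of the 12 for 6 of the 16 genes and F1 control library A for 7. With the length trend removed, Synpo2, Mylk and Myh11 differed by -1.04, -0.13 and -0.10. In that fit 0 members passed, and 0 passed without F1 control library A, where only 3 of all genes passed. Cidea, a lipid droplet protein listed with adipocyte genes, measured 3.69, 3.80 and 0.13 CPM in F1 dose 2 libraries and at most 0.22 CPM in the other groups (-4.71, SE 1.21, adjusted p = 0.0437), again with F1 dose 2 libraries A and B alone high. It was the only 1 of 19 adipocyte genes to pass (5.26%, against 2.94% of all genes tested). The adipocyte median was 0.22, with 11 of the 19 positive. F1 control library C was the highest of the 12 for 9 of the 19.

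**Figure D5:**
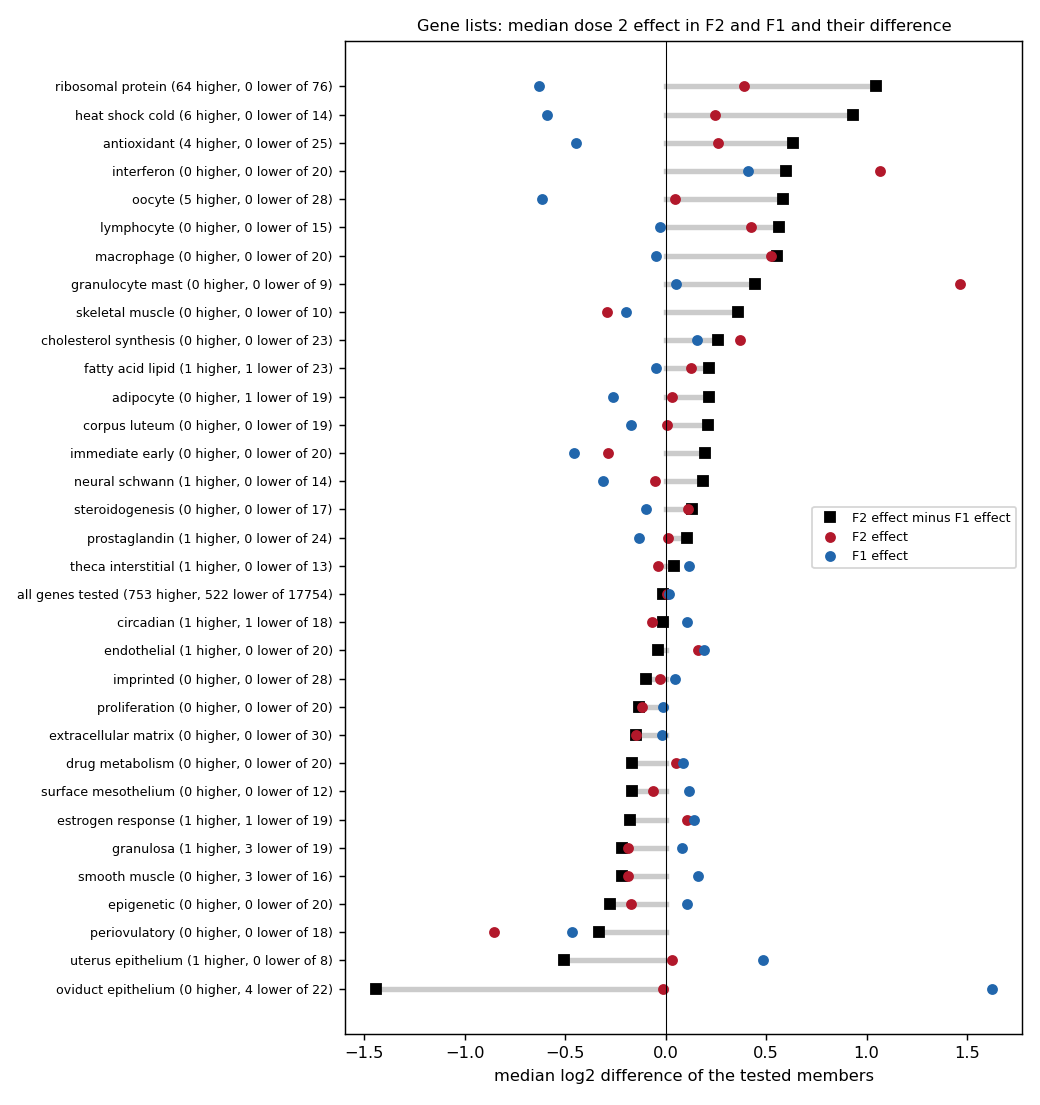
Median log2 difference (x axis) over the tested members of each gene list (y axis, with counts of members called higher and lower) for the F2 effect minus the F1 effect (black squares), the F2 effect (red) and the F1 effect (blue). Ribosomal protein, heat shock and antioxidant lists lie at the positive end, from 1.04 to 0.63, and oviduct epithelium markers at -1.44, against -0.01 over all genes.

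Other lists gave no calls. Of 20 interferon-response genes 0 passed, with a median difference of 0.60, a median F2 effect of 1.06 and a median F1 effect of 0.41, and 0 had an unadjusted p under 0.05. The median difference was -0.54 without F2 both-parents library C and 1.51 without F2 control-parents library A. Isg15, a ubiquitin-like protein induced by interferon, measured 6.66, 3.05 and 37.5 CPM in F2 both-parents libraries, against 9.48, 1.87 and 2.61 CPM in F2 control-parents libraries, so that F2 both-parents library C stood alone. Of 20 macrophage genes 0 passed (median 0.56, with 0 at an unadjusted p under 0.05), and of 18 periovulatory genes 0 passed (median -0.33, with 2 lower at an unadjusted p under 0.05). The macrophage median ran from 0.13 without F2 both-parents library C to 1.33 without F2 control-parents library A. The periovulatory median was 1.24 without F2 control-parents library C and 0.01 without F1 control library A, and it stayed negative, down to -0.60, in the other 10 fits without 1 library. None of 28 imprinted genes, 20 chromatin and DNA methylation genes or 20 drug metabolism genes passed, at medians of -0.10, -0.27 and -0.17, with 5, 2 and 5 higher and 3, 5 and 2 lower at an unadjusted p under 0.05. At that level 15.9% of all genes tested were higher and 16.3% lower, and these lists had 17.9%, 10.0% and 25.0% higher and 10.7%, 25.0% and 10.0% lower. DESeq2 called 0 interferon, 0 macrophage and 1 periovulatory genes, 6 imprinted genes, 3 chromatin genes and 1 drug metabolism gene.

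A few further list members passed, and with 4.24% of all genes tested called higher and 2.94% lower, 1 call in a list of 8 to 23 genes is no result about the list. Of 23 fatty acid genes, the mitochondrial oxidation enzyme Acadvl had a higher effect in F2 (0.68) and the elongase Elovl6 a lower one (-1.08). The receptor partner Ramp2 was the 1 of 20 endothelial genes to pass (1.01), the transcription factor Tcf21 the 1 of 13 theca and interstitial genes (0.84) and Hoxd10 the 1 of 8 uterine genes (1.24). All 3 had a higher effect in F2. Of 19 corpus luteum genes and 23 cholesterol synthesis genes 0 passed, at medians of 0.21 and 0.26, with 2 and 1 higher and 0 lower at an unadjusted p under 0.05. DESeq2 counts for these 2 lists were 2 and 0.

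In the F1 comparison the 5 genes furthest up by the naming rule were A2ml1, Cfap65, Fam216b, Tcte1 and Sec14l3, with F1 effects from 6.46 to 7.21, and all were high in F1 dose 2 libraries A and B alone. The 5 furthest down were Hspa1a, Hspa1b, the deubiquitinase Uchl1, the small nucleolar RNA Snord14e and the membrane protein Tmem114. Uchl1 measured 66.0, 54.7 and 61.7 CPM in F1 dose 2 libraries, against 253, 98.2 and 109 CPM in F1 controls, and its F2 effect was -0.05 (difference 1.28, SE 0.35, adjusted p = 0.0443). Between generations within the dose, the angiotensin precursor Agt was higher in F2, at 246, 364 and 532 CPM in F2 both-parents libraries, against 105, 192 and 108 CPM in F1 dose 2 libraries (log2 difference 1.497, edgeR adjusted p = 0.0213). Its difference of effects did not pass (1.07, SE 0.51, adjusted p = 0.147).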

How the data were processed

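Whole-ovary RNA was extracted with TRIZOL and sequenced as stranded mRNA libraries, per the labels' protocols. The authors deposited raw counts per gene, without normalization. Per the submitters' processing notes, reads were handled with featureCounts 2.0.3, TopHat2 2.1.1 and Bowtie2 2.4.5 among other tools, and the build named was mm39. No source used here gave the strand setting of the counting, and overlapping antisense genes are therefore uncertain. Of 26264 table entries, 133 had no gene ID (0.0591 to 0.0861% of counts in the 12 libraries). Entries without an ID were kept, and those past the low-count filter were tested, Armc4 among them. RefSeq's gene table held 17687 of 17694 tested IDs. The promoter table is on build GRCm38.p6 and was matched by symbol.

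Counts of the 27 ovary libraries were filtered (filterByExpr, minimum count 10), scaled by TMM and fitted with group coefficients in edgeR 4.0.16 on R 4.3.3 (robust quasi-likelihood, 18 residual degrees of freedom), with Benjamini-Hochberg adjustment over 17754 genes and a threshold of 0.05. Every adjusted p is from this fit unless another tool is named. CPM values use the TMM library sizes. Log2 CPM with a prior count of 2 served for the likeness of libraries and the removal of the length trend. The fitted log2 differences use edgeR's default prior count. The deviations of short and long genes in each library used log2 CPM with a small constant added. All fold changes are log2. The shared spread also draws on the other 15 ovary libraries. Alternatives were DESeq2 1.42.0, limma 3.58.1 voom with sample weights, RLE scaling, no filter, the 12 libraries alone, a replicate block and leaving out each of the 12 libraries. Removal of a length trend per library (lowess span 0.3) and 3 fits without libraries that stood apart were added after seeing the data. The reported fit did not use the replicate letters to pair libraries.

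The fit was tested on simulated counts with known changes. Named genes were the 12 largest differences each way past the threshold with a gene symbol and a mean of at least 1 CPM, the 5 largest each way in the other comparisons, and up to 4 members of each gene list with the smallest p. Prostaglandin, oestrogen and steroidogenesis genes could be named whatever their result. The 10 genes of smallest adjusted p, further list members, the genes plotted and the motifs shown were chosen after their values were seen. The comparison and the gene lists were chosen with earlier results of these data known.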

Additional observations from a re-analysis of the deposited data

Results flagged for a closer look

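The F2 and the F1 effect of dose 2 differed, by the test of that difference, for 1275 genes, and each gene named here is one of them, given with its log2 difference. The 12 largest negative differences and 3 called oviduct markers beside Dnah5 were Sec14l3 (-8.01), Fermt1 (-7.81), Kndc1 (-7.48), Tsnaxip1 (-6.87), Cdhr3 (-6.78), Cfap52 (-6.58), Rsph4a (-6.44), Hydin (-6.17), Armc4 (-5.74), Ccdc180 (-5.70), Rp1 (-5.67), Dnah5 (-5.64), Foxj1 (-5.21), Dnah9 (-2.30) and Ccdc39 (-1.72). F1 dose 2 libraries A and B were the highest of the 12 for each of these. So they were for Cidea (-4.71), the only 1 of 19 adipocyte genes that passed.

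Among chaperone and redox genes these were Hspa1a (3.35), Hspa1b (2.91), Mt1 (2.13), Mt2 (2.05), Ddit3 (1.71), Herpud1 (1.52), Dnaja1 (1.30), Prdx5 (1.11), Dnajb1 (1.05), Txn1 (1.04) and Xbp1 (0.91). Ribosomal protein genes named by the rule were Rpl36 (1.48), Rpl35a (1.187), Rpl29 (1.122) and Rps16 (1.096). Oocyte genes were Zar1 (1.06), Npm2 (1.03), Ooep (0.92) and Zp3 (0.90), and the clock genes were Dbp (2.65) and Arntl (-1.02).

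Of granulosa, oestrogen and prostaglandin genes the differences were Inhba (-2.03), Greb1 (-1.39), Gja1 (-0.75), Amhr2 (0.80) and Cbr1 (0.82). Smooth muscle genes were Synpo2 (-1.68), Mylk (-0.73) and Myh11 (-0.66). Other genes were Crym (4.10), Bc1 (2.41), Fcna (2.403), Ltc4s (1.90), Dnd1 (1.82), Dlk2 (1.76), Defb19 (1.76), Uchl1 (1.28), Hoxd10 (1.24), Ramp2 (1.01), Tbc1d10a (0.87), Trip10 (0.86), Tcf21 (0.84), Acadvl (0.68), Cep290 (-0.88), Elovl6 (-1.08), Tspyl4 (-1.24), Slc16a7 (-1.25), Dgke (-1.39) and Fzd6 (-1.65).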

How the results depend on the processing

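The number of genes whose effect differed between F2 and F1 was 1275, and it was 1322 with RLE scaling, 1806 with the replicate block, 3226 in DESeq2, 94 in limma's voom fit, 25 without the filter and 0 in the 12 libraries alone. It ran from 1 to 4158 when 1 library was left out. Of settings chosen after seeing the data, removal of the length trend gave 88, and 0 passed without F1 dose 2 libraries A and B, without these and F1 control library A, and without F2 both-parents library C and F1 control library A. The counts of shared genes with the 1275 were 1255 in DESeq2, 93 in voom, 1176 with the block and 1271 with RLE.

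The F2 comparison, with 0 genes, gave 258 in DESeq2, 853 in voom, 1 with the block, 560 without F1 dose 2 libraries A and B and F1 control library A, and 0 to 1078 when 1 library was left out. The F1 comparison, with 350, gave 1340 in DESeq2, 6 in voom, 0 in the 12 libraries alone, 157 with the block and 0 to 2473 when 1 library was left out. Without F1 dose 2 libraries A and B it gave 1, without these and F1 control library A 0, and without F2 both-parents library C and F1 control library A 0. F2 control-parents against F1 control females, with 0, gave 124 in DESeq2, 600 with the block, 3 with the length trend removed and 0 to 16 when 1 library was left out. F2 both-parents against F1 dose 2 females, with 1390, gave 2686 in DESeq2, 4578 in voom, 0 in the 12 libraries alone, 307 with the block and 1 to 4662 when 1 library was left out. It gave 2 without F1 dose 2 libraries A and B and 5 when F1 control library A was also left out. The cause of these changes was not tested. The block is the fit with the replicate letter within each generation. Its group coefficients stand for letter A, so its 600 and 307 genes compare the generations at letter A and not between group averages. Its comparisons within a generation, and the F2 effect minus the F1 effect, keep their meaning. Same-letter libraries deviated together with correlations of -0.053, 0.182 and -0.121 in F2 and 0.085, -0.182 and -0.058 in F1.

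The 65 named genes that passed kept their sign in all 780 fits without 1 library and stayed past the threshold in 272 of them. Without F1 dose 2 libraries A and B, the sign turned for Ccdc180 (0.78), Ccdc39 (0.13), Cdhr3 (2.43), Dnah5 (1.60), Foxj1 (1.83), Rsph4a (0.37) and Sec14l3 (0.72). Without F1 control library A as well, the values were Ccdc180 0.87, Ccdc39 0.28, Cdhr3 2.15, Dnah5 1.83, Foxj1 1.30, Hydin 0.065, Rsph4a 0.25 and Sec14l3 1.127.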
